A study of Homo sapiens with 9 samples.

Results

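Genes of the epithelial-mesenchymal transition (EMT) and of TGF-beta signalling were examined in nascent RNA from PANC-1, a human pancreatic ductal carcinoma line. The 45 genes were taken by symbol from the 57733 genes of the deposited tables: 8 EMT transcription factors, the mesenchymal genes VIM and S100A4, and ligands, latency and matrix proteins, receptors, SMADs, repressors, antagonists and ID genes of the TGF-beta, activin and BMP pathways. Groups were KO C22 and KO C28, a pair of clones edited by CRISPR/Cas9 at the histone demethylase gene KDM6A (UTX), and WT, a PANC-1 control line that received no guide RNA. Each knockout line is a single clone, so loss of KDM6A and other traits of that clone cannot be told apart within it. All lines were labelled with 2 mM bromouridine for 30 min and collected with a chase of 0 h. Bru-seq sequences the labelled RNA (2 libraries per line). In BruUV-seq (1 library per line) cells are first irradiated with UV at 100 J/m2.

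TGF-beta and activin ligands are secreted in latent or antagonist-bound forms, bind paired type I and type II serine/threonine kinase receptors and cause phosphorylation of SMAD2 and SMAD3, while BMP ligands act through SMAD1 and SMAD5. The SMADs then act in the nucleus with SMAD4, and among the genes they turn on are SMAD6, SMAD7, SKIL and PMEPA1, which damp the signal, and the ID genes, which BMPs induce. In pancreatic carcinoma the pathway is known both for growth arrest and for EMT, in which SNAI, ZEB and TWIST factors repress epithelial genes and cells gain vimentin.

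Estimated reads in genes were 5.64 to 31.1 M per library. The lowest belonged to Bru-seq KO C28 replicate 2. Reads that fell outside genes made up 46.5% of that library, compared with 9.93% to 20.01% elsewhere, and its rank correlation with the others over 16917 genes was 0.717 to 0.821, where the others reached 0.830 to 0.961 among themselves. Leaving it out turned the sign of 6 of the 43 listed genes tested in KO C28 against WT (log2 fold change, both assays) and moved 25 more by over 1.5 times. In KO C28 against KO C22 the numbers were 12 and 21, and in KO C22 against WT 1 and 1. KDM6A itself had 286 and 425 CPM (reads scaled to the size of the library in genes) in Bru-seq KO C22 and 336 and 65.7 CPM in KO C28, against 321 and 275 CPM in WT, and gene-body reads do not show a small lesion. Keratin genes of an epithelial line were transcribed throughout. KRT8, KRT18, KRT19, KRT7, EPCAM and CDH1 together summed to 20.3 to 60.5 RPKM in WT. The sum was 11.2 to 52.9 RPKM for KO C22 and 39.4 to 237 RPKM for KO C28. CDH1 and EPCAM alone had Bru-seq medians of 0.0289 and 0.110 RPKM, and the sum hides their differences between lines. EPCAM had 8.71, 16.4 and 15.4 CPM in WT (BruUV-seq last), against 2.05, 2.48 and 4.15 for KO C22. Its KO C28 values were 4.26, 7.16 and 7.01 CPM, so all clone libraries lay below all of WT. CDH1 had 5.38, 11.6 and 24.7 CPM in WT, against 1.35, 1.33 and 0.845 for KO C22. In KO C28 it overlapped WT, at 1.08, 8.52 and 8.24 CPM. The 7 fibroblast markers summed to 0.234 to 1.70 RPKM in KO C22 and 0.175 to 0.913 RPKM in KO C28, against 0.0852 to 0.291 RPKM in WT, most of it COL1A1, while LUM was at 0 in 7 and PDGFRA at 0 in 6 of the 9 libraries. Leukocyte markers summed to 0.691 to 3.38 RPKM over the 9 libraries, mostly CD68 with at most 8.77 reads, and endothelial markers to 0.0196 to 0.322 RPKM with CLDN5 at 0 in all 9. The endothelial CDH5 was highest in Bru-seq KO C28 replicate 2, at 8.15 CPM.

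By length-scaled level (RPKM as deposited, median of the 6 Bru-seq libraries), 20 of the 45 genes stood at 1 RPKM or more, against 12.3% of all 57733 genes, 14 stood between 0.1 and 1, and 11 under 0.1. The intermediate filament gene VIM was the most transcribed, at 87.7 RPKM, followed by ID1 at 22.3, the calcium-binding S100A4 at 10.4, SMAD3 at 9.28 and the type II receptor gene TGFBR2 at 4.10 RPKM. Among the EMT factors, ZEB1 (1.38 RPKM) and SNAI1 (1.35 RPKM) led, TCF4 stood at 0.282, and ZEB2, PRRX1, SNAI2 and TWIST2 lay between 0.00795 and 0.0255 RPKM. TWIST1 was listed at 0 in all 9 libraries, where 3 reads would correspond to 0.0964 to 0.532 CPM. Receptor-activated SMADs of both branches were present, SMAD5 at 3.96, SMAD2 at 2.39 and SMAD1 at 0.598 RPKM. Of the TGF-beta ligand genes, TGFB2 had 0.880, TGFB1 0.344 and TGFB3 0.0809 RPKM.

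**Figure D1:**
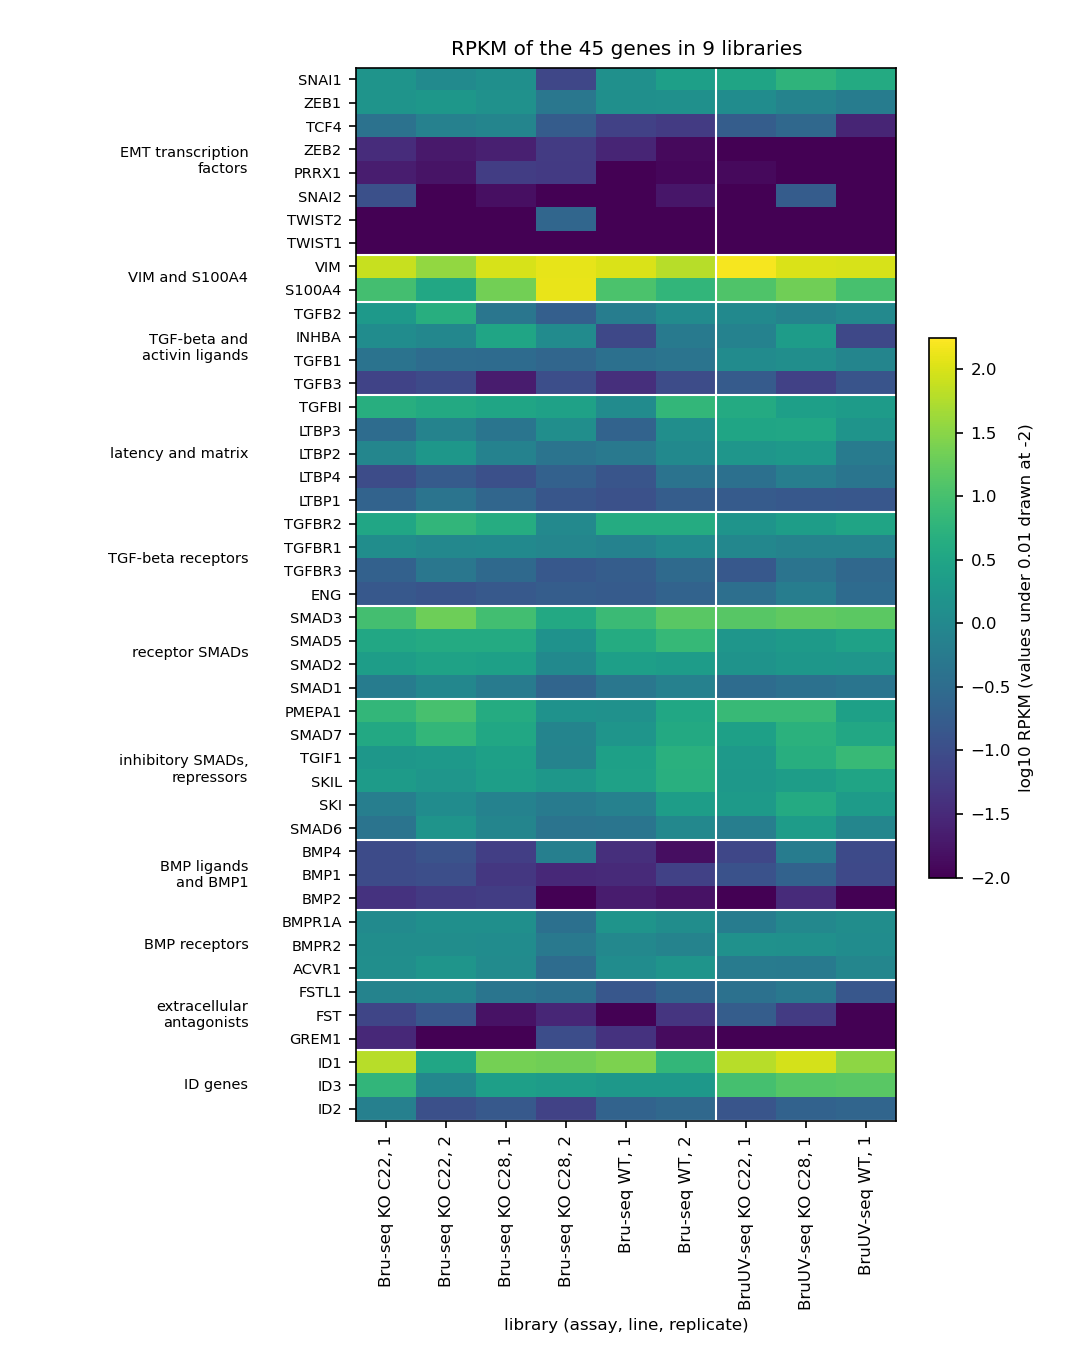
Heat map of deposited RPKM on a log10 scale for the 45 genes (rows, grouped by role and ordered by Bru-seq median within a role) in the 9 libraries (columns, Bru-seq left of the line and BruUV-seq right of it, KO C22, KO C28 and then WT). VIM was high in every library, ID1 ran from 3.23 to 95.2 RPKM, TWIST1 was at 0 in all 9, and Bru-seq KO C28 replicate 2 stood out for high S100A4 and TWIST2 and low SNAI1.

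RefSeq promoters (GRCh38.p14, the 250 bases before the RefSeq start) were found for 39 of the 45 genes, and SKI, BMP1, BMP2, SNAI1, TWIST1 and SNAI2 are named only. Searched on both strands, the short SMAD element CAGAC was in 35.9% of these 39 promoters and in 37.8% of all 27305. The GC-rich SMAD and BMP element GGCGCC was in 28.2%, against 16.1% of all, the GC box GGGCGG in 59.0%, against 42.3%, the E-box CAGGTG of ZEB and SNAI factors in 10.3%, against 17.5%, the AP-1 site TGANTCA in 5.13%, against 6.60%, and TATAAA in 12.8%, against 11.1%. The listed promoters were also richer in G and C, with a median of 66%, against 58% over all. The SMAD palindrome GTCTAGAC, which holds no CAGAC, was in SMAD6 alone, against 0.176% of all promoters. Shown are TCF4, with the largest KO C22 fold among genes above 100 counts, TGFB2, with the smallest p between the clones, and the feedback genes PMEPA1, SMAD7 and SMAD6, at chr18:55636028-55636207 (minus strand), chr1:218345086-218345335 (plus), chr20:57711537-57711722 (minus), chr18:48950966-48951215 (minus) and chr15:66701986-66702235 (plus). TCF4 and PMEPA1 are printed only as far as the start of the gene in the deposited tables. The RefSeq start lay 899 bases from the deposited start for TGFB2, 254 for SMAD7 and 8 for SMAD6. Among the 39 this distance reached 20184 bases (TGFBR3), so a searched window need not adjoin the gene as counted. Capitals mark matches to the motifs above on either strand.
TCF4: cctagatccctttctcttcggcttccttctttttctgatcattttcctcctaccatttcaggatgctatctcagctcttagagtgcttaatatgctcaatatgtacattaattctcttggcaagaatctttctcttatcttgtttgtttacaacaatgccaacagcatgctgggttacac
TGFB2: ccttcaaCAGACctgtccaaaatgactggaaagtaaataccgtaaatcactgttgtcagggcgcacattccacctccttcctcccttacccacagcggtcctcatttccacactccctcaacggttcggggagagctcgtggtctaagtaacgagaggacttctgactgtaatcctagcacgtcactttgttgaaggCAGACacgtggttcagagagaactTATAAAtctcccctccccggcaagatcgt
PMEPA1: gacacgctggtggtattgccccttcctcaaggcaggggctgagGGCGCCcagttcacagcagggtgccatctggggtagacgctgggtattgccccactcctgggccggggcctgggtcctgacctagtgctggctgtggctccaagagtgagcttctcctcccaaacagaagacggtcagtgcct
SMAD7: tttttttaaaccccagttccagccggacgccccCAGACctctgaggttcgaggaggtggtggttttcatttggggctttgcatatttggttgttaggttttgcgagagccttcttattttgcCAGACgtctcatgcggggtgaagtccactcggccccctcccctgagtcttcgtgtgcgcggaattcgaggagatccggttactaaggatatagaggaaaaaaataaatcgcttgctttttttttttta
SMAD6: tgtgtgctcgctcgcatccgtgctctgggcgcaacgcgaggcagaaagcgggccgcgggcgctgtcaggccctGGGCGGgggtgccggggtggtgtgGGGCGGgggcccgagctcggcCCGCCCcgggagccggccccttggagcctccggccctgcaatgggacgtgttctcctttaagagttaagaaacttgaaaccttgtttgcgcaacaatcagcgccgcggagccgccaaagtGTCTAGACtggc
TGFB2 held CAGAC 243 and 53 bases and TATAAA 29 bases before its RefSeq start, SMAD7 held CAGAC at 217 and 128, and the SMAD6 palindrome began at 12. In the TCF4 stretch none of the 7 motifs was found, and in PMEPA1 only GGCGCC, at 207. Letters in a window are a description and not a binding site.

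Set against WT with both assays in 1 fit (edgeR quasi-likelihood, line and assay as terms, n = 3 libraries per line), the listed genes of KO C22 mostly lay above WT, while those of KO C28 were split. In KO C22, 33 of the 43 genes tested (76.7%) had a log2 fold change above 0, against 51.5% of the 20819 genes tested, with a median of 0.46, against 0.03 over all. In KO C28, 25 of 43 (58.1%) did, against 47.1%, with a median of 0.20, against -0.06. TWIST1 and SNAI2 were too low to test. No gene of the list passed a Benjamini-Hochberg adjusted p of 0.05 in either clone, where 0.178% of all genes passed in KO C22 and 0.125% in KO C28. Unadjusted p under 0.05 was met by 7 of 43 in KO C22 (FSTL1, INHBA, LTBP1, LTBP2, PMEPA1, TCF4 and TGFB2), that is 16.3%, against 5.86% of all genes, and by 6 of 43 in KO C28 (BMP4, FSTL1, INHBA, PRRX1, S100A4 and TCF4), 14% against 10.5%. DESeq2 called 4 of the 40 that it gave an adjusted p in KO C22 (FSTL1, INHBA, PMEPA1, TCF4), 10.0% against 1.98% of all genes, and 6 of 40 in KO C28 (BMP4, FSTL1, INHBA, PRRX1, S100A4, TCF4), 15.0% against 3.86%. In KO C22 every library lay above every WT library for 9 genes (BMP1, BMP4, BMPR2, FST, FSTL1, INHBA, PMEPA1, PRRX1 and TCF4), 20.9% against 4.88% of all genes, and below for SKIL, 2.33% against 6.12%. In KO C28 this held above WT for 4 (FSTL1, INHBA, S100A4 and TCF4), 9.3% against 4.33%, and below for ID2 and SKIL, 4.65% against 5.9%.

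Without Bru-seq KO C28 replicate 2 (21986 genes tested), FSTL1 and TCF4 passed in KO C22, 4.65% of the 43, where 0.646% of all genes passed, and TCF4 passed in KO C28, 2.33% where 0.305% did. Genes above 0 were 32 of 43 in KO C22 (74.4%, against 50.9%) with a median of 0.47, and 25 of 43 in KO C28 (58.1%, against 49.6%) with a median of 0.11. Unadjusted p under 0.05 was met by 11 (25.6%, against 10.7%) and 7 (16.3%, against 5.38%). In KO C22, 9 genes lay wholly above WT (20.9%, against 4.87%) and 1 below (2.33%, against 6.1%). In KO C28, 7 lay wholly above (BMP2, BMPR2, FSTL1, INHBA, PMEPA1, S100A4 and TCF4), 16.3% against 7.04%, and 3 below (ID2, SKIL and TWIST2), 6.98% against 8.36%, so that BMP2, BMPR2, PMEPA1 and TWIST2 overlapped WT through that replicate.

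Bru-seq alone gave fewer calls over all genes. Of 22827 genes 0.00438% passed in each clone and none of the 43 did, with edgeR. Unadjusted p under 0.05 was met by 4 of the 43 in KO C22 and 4 in KO C28 (9.3% in each, against 2.01% and 6.28% of all genes), while DESeq2 called FSTL1 and TCF4 in KO C22 (5.88% of 34, against 0.703% of all genes) and S100A4 and TCF4 in KO C28 (5.0% of 40, against 1.2%). Log2 fold changes above 0 were found for 30 genes in KO C22 (69.8%, against 53.5%) and 16 in KO C28 (37.2%, against 47.3%). Both libraries of KO C22 lay above both of WT for 14 genes (32.6%, against 13.9%) and below for 1 (2.33%, against 15.4%). For KO C28 the numbers were 7 above (16.3%, against 18.6%) and 8 below (18.6%, against 17.6%). Both libraries of each clone lay above both WT libraries for BMP4, FSTL1, INHBA, PRRX1 and TCF4, 11.6% of the 43, against 3.93% of all genes. For SKIL, both libraries of each clone lay below WT, 2.33% against 6.48% of all genes. TGFB2 alone lay above WT in KO C22 and below it in KO C28 (2.33% against 2.65%). The clones share the WT libraries, so a like position in both is not independent.

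**Figure D2:**
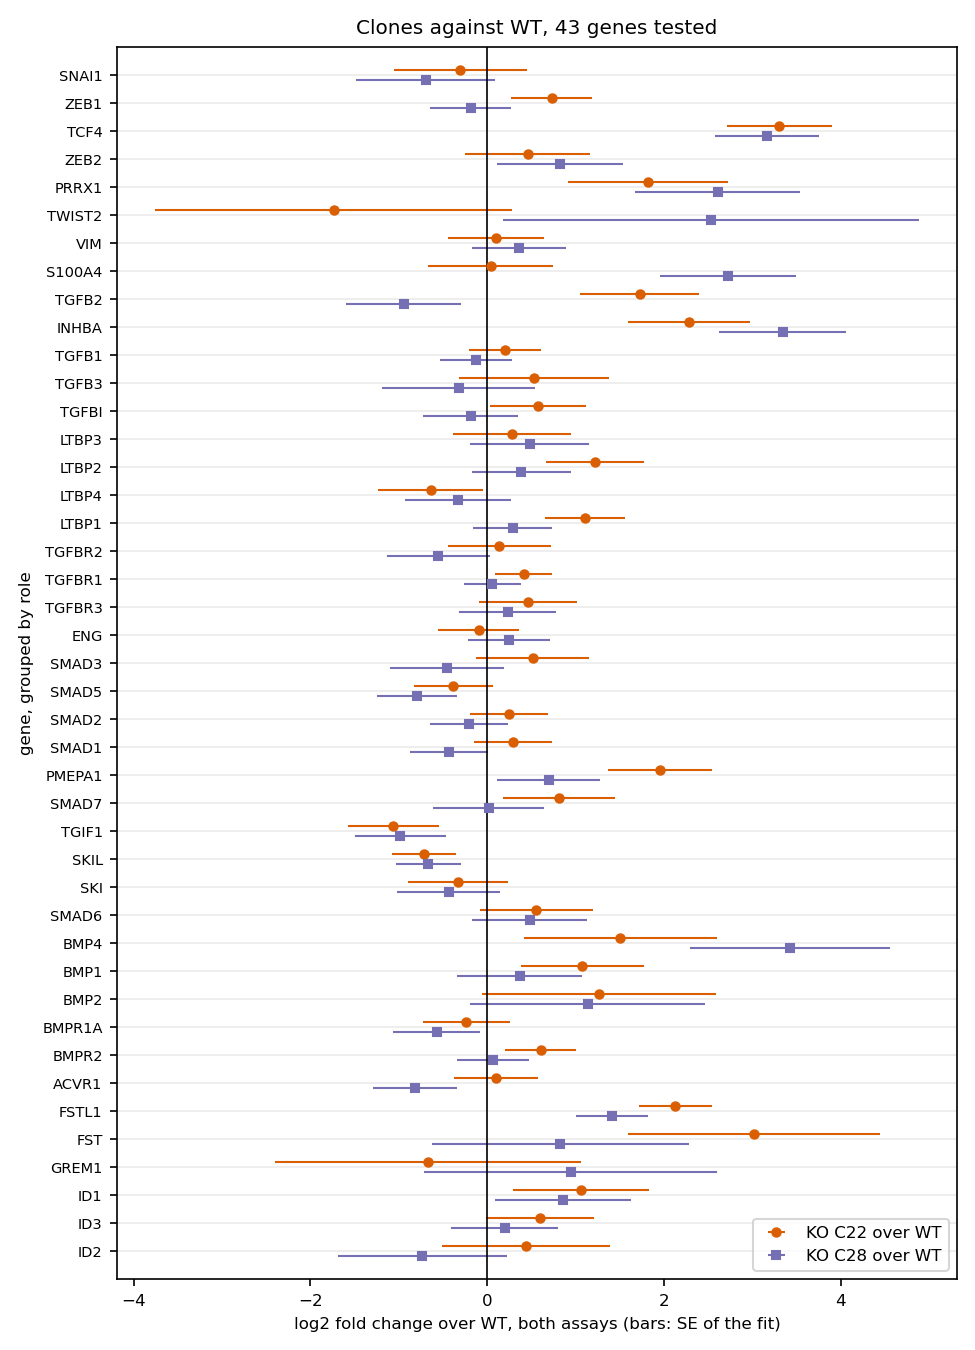
Log2 fold change over WT from the fit of both assays for the 43 genes tested, grouped by role, with KO C22 as circles and KO C28 as squares and bars of 1 SE. TCF4, INHBA and FSTL1 lay above 0 by more than 3 SE in both clones, and TGFB2 and S100A4 had the smallest p-values between them.

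Of the 6 EMT transcription factors tested, 4 lay above 0 in each clone, with or without Bru-seq KO C28 replicate 2, and TCF4 had the smallest p in both. TCF4 encodes a basic helix-loop-helix factor that binds E-boxes (E2-2, ENSG00000196628.15, chromosome 18, 55222331 to 55636027, minus strand). It had 200.4 and 466 CPM in Bru-seq and 91.6 CPM in BruUV-seq of KO C22, and 411, 91.7 and 121 CPM in KO C28, against 32.3, 27.6 and 12.1 CPM in WT. Every clone library lay above every WT library. The log2 fold change was 3.31 (SE 0.59, edgeR adjusted p = 0.0618) for KO C22 and 3.16 (SE 0.59, adjusted p = 0.0834) in KO C28. Without Bru-seq KO C28 replicate 2 it passed in both clones, with 3.29 (adjusted p = 0.00428) and 3.60 (adjusted p = 0.00568), in KO C22 also without KO C28 replicate 1 (adjusted p = 0.0329) and in KO C28 without KO C22 replicate 2 (adjusted p = 0.0364). Over all 9 omissions its adjusted p ran from 0.00428 to 0.425 in KO C22 and from 0.00568 to 0.525 in KO C28. In bulk RNA a larger share of cells with TCF4 on and more TCF4 RNA per cell cannot be told apart. RNA of TCF4-AS1, which runs antisense to it, stayed at or below 0.129 of the RPKM of TCF4.

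The other EMT factors were lower or more even. PRRX1, a homeobox factor of mesenchymal tissue, had only 37 and 44 reads in Bru-seq KO C22 and 81 and 42 in KO C28, against 5 and 26 in WT, with log2 fold changes of 1.82 (SE 0.90) and 2.61 (SE 0.93) and adjusted p of 0.909 and 0.457. Its Bru-seq libraries did not overlap with WT, but in BruUV-seq it had 15, 13 and 6 reads in KO C22, KO C28 and WT. ZEB1, a repressor of CDH1, had 412 and 578 CPM in Bru-seq KO C22 and 349 and 135 in KO C28, against 325 and 346 in WT. Both Bru-seq libraries of KO C22 lay above WT and those of KO C28 spread to both sides. With both assays the log2 fold change was 0.73 (SE 0.46, adjusted p = 0.978) for KO C22 and -0.18 (SE 0.46) for KO C28, which turned to 0.17 (SE 0.30) without KO C28 replicate 2. SNAI1, a zinc finger repressor of the same kind, had 11.7 and 9.95 CPM in Bru-seq KO C22 and 9.15 and 0.617 in KO C28, against 9.63 and 17.8 in WT. Its KO C28 value of -0.70 (SE 0.79, adjusted p = 0.770) was -0.02 without Bru-seq KO C28 replicate 2 and -1.44 without its BruUV-seq library. ZEB2 stood at 0.46 (SE 0.71) for KO C22 and 0.83 (SE 0.71) for KO C28, or 0.31 without KO C28 replicate 2. TWIST2 had 165 reads in that same replicate and 0 in the other KO C28 libraries, against 13 to 14 in each WT library and 12, 1 and 1 in KO C22, so its KO C28 value of 2.54 (SE 2.35) rests on 1 library and turned to -6.46 (SE 2.44) without it, a fitted value against libraries at 0. SNAI2 had at most 12 reads in any library.

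VIM, the product of which builds the intermediate filaments of mesenchymal cells, was high in every line. It had 799 and 472 CPM in Bru-seq KO C22 and 948 and 1336 in KO C28, against 1002 and 631 in WT, and 1598, 902 and 890.2 in BruUV-seq of KO C22, KO C28 and WT. The ranges overlapped, with 0.10 (SE 0.54) for KO C22 and 0.36 (SE 0.53) in KO C28, or 0.06 (SE 0.43) without KO C28 replicate 2.

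S100A4, a motility-related calcium-binding protein gene (ENSG00000196154.11, chromosome 1, 153543613 to 153550136, minus strand), was higher in all KO C28 libraries than in either other line. It had 117 and 756 CPM in Bru-seq and 105 CPM in BruUV-seq of KO C28, and 53.4, 24.7 and 66.0 CPM in KO C22, against 58.5, 33.9 and 49.96 CPM in WT. Replicate 2 of KO C28 lay far above the rest, and KO C22 overlapped WT. The log2 fold change over WT was 2.72 (SE 0.77, adjusted p = 0.343) in KO C28, or 1.18 (SE 0.40, adjusted p = 0.637) without Bru-seq KO C28 replicate 2. In KO C22 it was 0.04 (SE 0.71). Neighbouring S100 genes in KO C28 gave S100A6 2.42 (SE 0.70), S100A16 2.35 (SE 0.53) and S100A13 1.82 (SE 0.49), with adjusted p of 0.364, 0.165 and 0.318, while S100A2 stood at 1.02 and CHTOP, 83.8 kb away, at -0.42. Without KO C28 replicate 2 they were 1.17 for S100A6, 1.91 for S100A16, 1.21 for S100A13, 0.33 for S100A2 and -0.14 for CHTOP, and none passed.

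**Figure D3:**
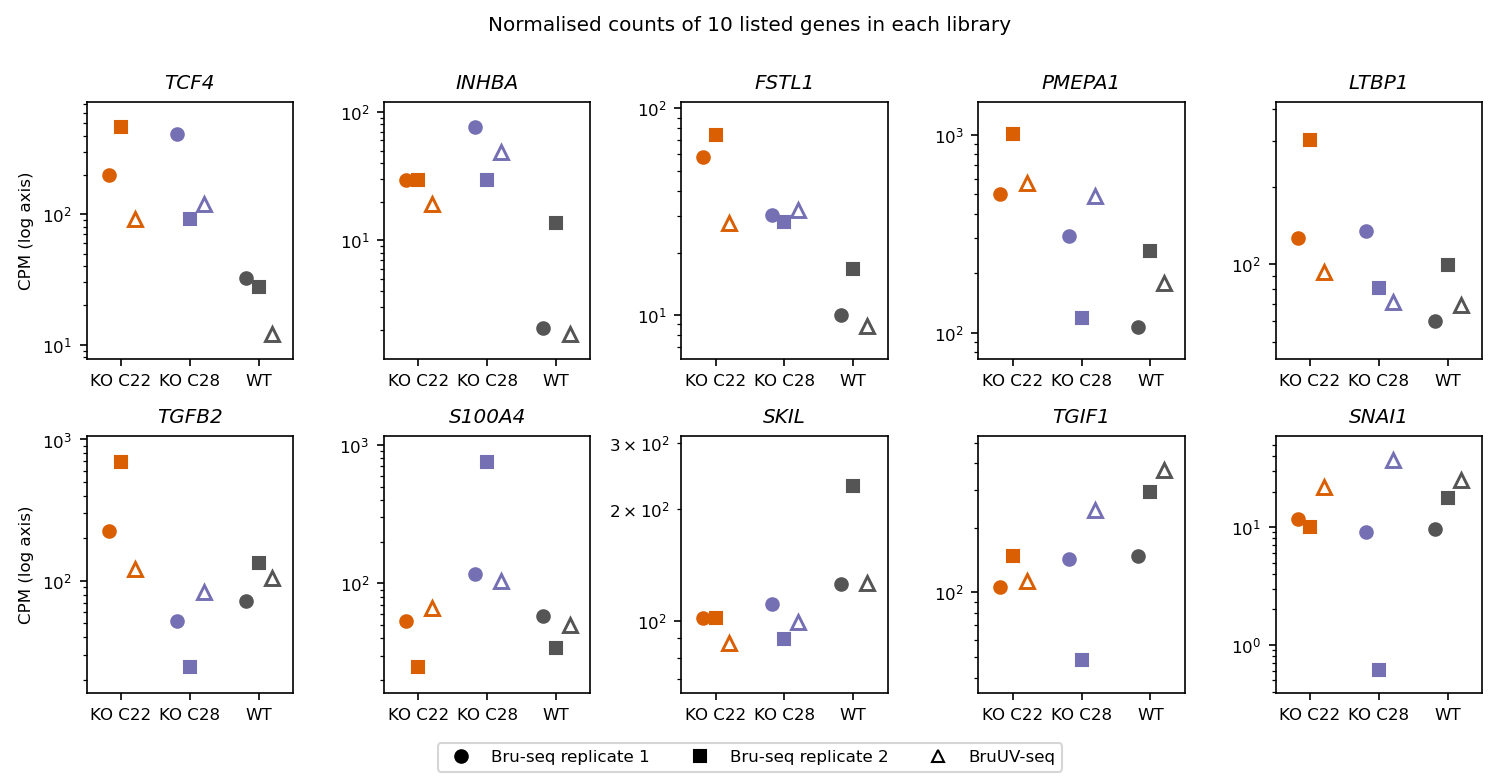
Normalised counts (CPM, log axis) of 10 listed genes in each library, with KO C22, KO C28 and WT from left to right in each panel, filled symbols for Bru-seq replicates and open triangles for BruUV-seq. For TCF4, INHBA and FSTL1 all clone libraries lay above all WT libraries, and for SKIL all lay below. S100A4 in KO C28 replicate 2 stood at 756 CPM.

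Of the ligand genes, INHBA was higher in both clones and TGFB2 differed in direction. INHBA encodes the beta A chain of activin A (ENSG00000122641.10, chromosome 7, 41685114 to 41705834, minus strand). It had 29.5 and 29.7 CPM in Bru-seq and 19.2 CPM in BruUV-seq of KO C22, and 77.0, 29.8 and 49.1 CPM in KO C28, against 2.05, 13.7 and 1.85 CPM in WT. Clone and WT libraries did not overlap, and the WT replicates themselves lay far apart. The log2 fold change was 2.29 (SE 0.69, adjusted p = 0.435) for KO C22 and 3.34 (SE 0.72, adjusted p = 0.145) in KO C28, from 1.77 to 3.66 and from 2.77 to 4.67 when a library was left out, with the highest values without Bru-seq WT replicate 2. The antisense INHBA-AS1 had at most 0.0916 of the RPKM of INHBA.

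TGFB2 (ENSG00000092969.11, chromosome 1, 218346235 to 218444619, plus strand) had 226 and 691 CPM in Bru-seq and 122 CPM in BruUV-seq of KO C22, and 52.3, 24.6 and 83.3 CPM in KO C28, against 72.3, 134 and 105 CPM in WT. In Bru-seq all KO C22 libraries lay above and all KO C28 libraries below WT, while the 3 BruUV-seq libraries were close together. The log2 fold change was 1.73 (SE 0.67, adjusted p = 0.708) in KO C22, or 0.70 without Bru-seq KO C22 replicate 2, and -0.94 (SE 0.65, adjusted p = 0.615) in KO C28, or -0.51 without Bru-seq KO C28 replicate 2 and -1.68 without its BruUV-seq library. TGFB1, the ligand most studied in tumours, had 12.2 and 11.5 CPM in Bru-seq KO C22 and 8.58 and 7.90 in KO C28, against 10.4 and 12.6 in WT. Its values of 0.20 (SE 0.41) and -0.13 (SE 0.41) were smaller than their errors, and the second was 0.005 (SE 0.38) without KO C28 replicate 2. Reads of TMEM91, which overlaps TGFB1 on the other strand, reached 1.14 of the RPKM of TGFB1 in a library, and the sources used here do not state whether counting kept strands apart. TGFB3 stood at 0.53 (SE 0.85) for KO C22 and -0.32 (SE 0.86) for KO C28, or -1.32 (SE 0.74) without KO C28 replicate 2.

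Of the 5 latency and matrix genes, 4 lay above 0 in KO C22 (median 0.58) and 3 in KO C28 (median 0.29), where it was 2 of 5 with a median of -0.05 without KO C28 replicate 2. LTBP1, which holds latent TGF-beta in the matrix (ENSG00000049323.15, chromosome 2, 32946972 to 33399509, plus strand), had 127 and 304 CPM in Bru-seq and 93.4 CPM in BruUV-seq of KO C22, and 134, 80.8 and 71.4 CPM in KO C28, against 60.2, 99.4 and 69.1 CPM in WT. Within each assay KO C22 lay above WT, but the KO C22 BruUV-seq value was inside the WT range over both assays. The KO C22 value of 1.11 (SE 0.45, adjusted p = 0.750) was 0.54 without Bru-seq KO C22 replicate 2 and 0.49 (SE 0.67, adjusted p = 1) with a gene-length offset. In KO C28 it was 0.29 (SE 0.45), or 0.46 without KO C28 replicate 2. LTBP2, a fibrillin-related matrix protein, had 124 and 319 CPM in Bru-seq and 242 CPM in BruUV-seq of KO C22, and 104, 64.6 and 245 CPM in KO C28, against 69.5, 143 and 72.7 CPM in WT. The clones stood apart from WT in BruUV-seq and overlapped it in Bru-seq, and the log2 fold change was 1.22 (SE 0.55, adjusted p = 0.836) for KO C22 and 0.39 (SE 0.56) for KO C28, or 0.78 without KO C28 replicate 2. LTBP3 and LTBP4 lay between -0.64 and 0.48 in both clones, and in KO C28 stood at -0.05 and -0.51 without that replicate. TGFBI, a matrix protein induced by TGF-beta, spread from 46.9 to 275 CPM within the WT replicates and stood at 0.58 (SE 0.54) and -0.19 (SE 0.54).

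None of the 7 listed receptor genes passed in either clone. TGFBR1, the type I receptor, had 72.4 and 72.8 CPM in Bru-seq KO C22 and 59.7 and 56.9 in KO C28, against 45.4 and 65.3 in WT, with 0.41 (SE 0.32) and 0.06 (SE 0.32). TGFBR2, the type II receptor that binds ligand first, had 352 and 864 CPM in Bru-seq KO C22 and 434 and 113 in KO C28, against 429 and 437 in WT. The KO C22 replicates lay on both sides of WT, while those of KO C28 lay inside the WT range and below it. The log2 fold changes were 0.14 (SE 0.59) for KO C22 and -0.55 (SE 0.58) for KO C28. Without KO C28 replicate 2 these were 0.09 (SE 0.39) and -0.13 (SE 0.43). The co-receptor genes TGFBR3 (betaglycan) and ENG (endoglin) lay between -0.10 and 0.46 in both clones, and TGFBR3 in KO C28 was 0.57 (SE 0.55) without that replicate. BMP receptor genes BMPR1A, BMPR2 and ACVR1 had a median of 0.10 in KO C22 and of -0.57 in KO C28, or -0.17 without KO C28 replicate 2. In that case BMPR1A stood at -0.17 (SE 0.33) and BMPR2, a type II receptor, at 0.33 (SE 0.28) in KO C28. BMPR2 in KO C22 was 0.60 (SE 0.41, adjusted p = 0.987), all libraries above WT, or 0.60 (SE 0.25, adjusted p = 0.420) without that replicate. ACVR1, a type I receptor, had 216 and 352 CPM in Bru-seq KO C22 and 182 and 58.8 in KO C28, against 193 and 267 in WT, and its KO C28 value of -0.82 (SE 0.48, adjusted p = 0.560) was -0.44 without Bru-seq KO C28 replicate 2.

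Of the 4 receptor-activated SMAD genes, 3 lay above 0 in KO C22 (median 0.27) and 0 in KO C28 (median -0.44). Without KO C28 replicate 2, 1 of 4 lay above 0 in KO C28 and the median was -0.10. SMAD3, which with SMAD2 carries TGF-beta and activin signals, had 1496 and 4088 CPM in Bru-seq KO C22 and 1388 and 623 in KO C28, against 1225 and 2290.2 in WT. Its replicates lay far apart within each line, and each clone overlapped WT. The fold changes were 0.51 (SE 0.64) for KO C22 and -0.46 (SE 0.64) for KO C28, or -0.08 (SE 0.50) without KO C28 replicate 2. SMAD2 had 345 and 530.5 CPM in Bru-seq KO C22 and 370.1 and 166 in KO C28, against 357 and 338 in WT, with 0.25 (SE 0.44) for KO C22 and -0.20 (SE 0.44) for KO C28, which turned to 0.11 (SE 0.30) without that replicate. SMAD5, of the BMP branch, had 219 and 299 CPM in Bru-seq KO C22 and 232 and 94.8 in KO C28, against 239 and 419 in WT. Its KO C28 value was -0.79 (SE 0.45, adjusted p = 0.552), or -0.45 without Bru-seq KO C28 replicate 2. SMAD1 stood at 0.29 (SE 0.45) for KO C22 and -0.43 (SE 0.44) for KO C28, or -0.12 (SE 0.39) without it.

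Inhibitory SMADs and repressors were divided, 3 of 6 lying above 0 in each clone, with or without KO C28 replicate 2. PMEPA1, a TGF-beta-induced membrane protein that keeps SMAD2 and SMAD3 from the receptor (ENSG00000124225.15, chromosome 20, 57648392 to 57711536, minus strand), had 501 and 1012 CPM in Bru-seq and 570.4 CPM in BruUV-seq of KO C22, and 307, 119 and 492 CPM in KO C28, against 107, 258 and 178 CPM in WT. KO C22 did not overlap with WT, and in KO C28 only Bru-seq replicate 2 reached into the WT range. The log2 fold change was 1.96 (SE 0.59, adjusted p = 0.435) for KO C22 and 0.70 (SE 0.58, adjusted p = 0.682) in KO C28, or 1.13 (SE 0.47, adjusted p = 0.848) without Bru-seq KO C28 replicate 2. Its antisense neighbour NKILA, a long noncoding RNA, reached 0.827 of its RPKM in a library, with 13.9 CPM in KO C22 and 8.02 CPM in KO C28, against 6.05 CPM in WT, in BruUV-seq. In Bru-seq it had 4.79 and 3.32 CPM in KO C22 and 1.97 and 0.247 CPM in KO C28, against 1.14 and 0.939 CPM in WT.

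SKIL (SnoN), a SMAD corepressor that TGF-beta both degrades and induces (ENSG00000136603.13, chromosome 3, 170357726 to 170396835, plus strand), had 102.1 and 101.8 CPM in Bru-seq and 87.5 CPM in BruUV-seq of KO C22, and 111, 89.8 and 99.4 CPM in KO C28, against 125.5, 229 and 127 CPM in WT. All 6 clone libraries lay below all WT libraries. The differences were -0.72 (SE 0.36, adjusted p = 0.915) and -0.66 (SE 0.37, adjusted p = 0.541), and -0.40 and -0.37 without Bru-seq WT replicate 2, the highest library. TGIF1, a homeodomain corepressor of SMADs (chromosome 18, 3411927 to 3459978, plus strand), had 106 and 148 CPM in Bru-seq and 113 CPM in BruUV-seq of KO C22, and 142, 48.5 and 242 CPM in KO C28, against 148, 296 and 374 CPM in WT. KO C28 lay below WT within each assay, while KO C22 touched the lower WT replicate, with -1.06 (SE 0.52, adjusted p = 0.904) for KO C22 and -0.99 (SE 0.52, adjusted p = 0.525) in KO C28, where it was -0.59 without Bru-seq KO C28 replicate 2. SMAD7, which blocks the TGF-beta receptor, had 140.3 and 312 CPM in Bru-seq KO C22 and 124 and 33.0 in KO C28, against 60.8 and 145 in WT, with 0.81 (SE 0.63) for KO C22 and 0.02 (SE 0.63) for KO C28. SMAD6, the BMP-branch inhibitor, stood at 0.56 (SE 0.64) and 0.48 (SE 0.65), and SKI, a corepressor of SMADs, at -0.33 (SE 0.56) and -0.43 (SE 0.58). Without KO C28 replicate 2 the KO C28 values were 0.51 (SE 0.52) for SMAD7, 0.90 (SE 0.66) for SMAD6 and -0.12 (SE 0.61) for SKI.

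In the BMP branch and among antagonists, FSTL1 was the clearest. FSTL1, a secreted glycoprotein with a follistatin-like domain (ENSG00000163430.11, chromosome 3, 120392293 to 120451253, minus strand), had 58.4 and 74.6 CPM in Bru-seq and 27.8 CPM in BruUV-seq of KO C22, and 30.6, 28.3 and 32.1 CPM in KO C28, against 10.04, 16.7 and 8.82 CPM in WT. The lines were fully apart from WT in both clones. The log2 fold change was 2.13 (SE 0.42, adjusted p = 0.0779) in KO C22, which passed without Bru-seq KO C28 replicate 2 (2.12, adjusted p = 0.0334), and 1.41 (SE 0.41, adjusted p = 0.364) in KO C28. An unnamed antisense transcript over it, AC063952.1, had at most 0.518 of its RPKM. FST, which binds activin, had 12 and 33 reads in Bru-seq KO C22 and 2 and 2 in KO C28, against 0 and 9 in WT, and 19, 7 and 1 in BruUV-seq of KO C22, KO C28 and WT. KO C22 lay above WT in each library, with 3.02 (SE 1.43, adjusted p = 0.874), a fitted value on few reads. GREM1, a BMP antagonist, had 0 to 30 reads and overlapped throughout, and its KO C28 value of 0.94 (SE 1.66) turned to -1.62 (SE 2.53) without KO C28 replicate 2.

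BMP4 had 15 and 30 reads in Bru-seq KO C22 and 8 and 51 in KO C28, against 7 and 3 in WT, and 9, 84 and 16 in BruUV-seq of KO C22, KO C28 and WT. KO C28 was high in 2 of its 3 libraries, with 3.43 (SE 1.13, adjusted p = 0.453), or 2.31 (SE 1.09, adjusted p = 0.971) without Bru-seq KO C28 replicate 2. BMP2 stood at 1.27 (SE 1.32) and 1.14 (SE 1.33) on at most 23 reads a library. BMP1, a procollagen and pro-ligand protease despite its name, stood at 1.08 (SE 0.69) and 0.37 (SE 0.71). Without that replicate the KO C28 values were 1.78 (SE 1.16) for BMP2 and 0.72 (SE 0.62) for BMP1.

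The ID genes, which encode helix-loop-helix proteins that cannot bind DNA and block E proteins such as the TCF4 product, differed widely between replicates. ID1 had 94.4 and 6.14 CPM in Bru-seq KO C22 and 33.1 and 34.7 in KO C28, against 37.9 and 9.92 in WT, and 93.6, 127 and 45.3 in BruUV-seq of KO C22, KO C28 and WT. In KO C22 and WT, replicate 1 was several times replicate 2, and the fold changes of 1.07 (SE 0.77) and 0.86 (SE 0.77) did not pass. ID3 spread likewise in KO C22, with 14.7 and 2.65 CPM, against 4.15 and 4.29 in WT. ID2 was below 5 CPM in every library, and all KO C28 libraries lay below WT (-0.73, SE 0.96, or -0.36 without Bru-seq KO C28 replicate 2).

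Set against each other, KO C28 and KO C22 gave the smallest p-values for TGFB2 and S100A4. Of 43 genes tested 0 passed with edgeR, as did 0 of all 20819 (0.0%), 13 lay above 0 (30.2%, against 50.4%), and 2 had an unadjusted p under 0.05, 4.65% against 5.71% of all genes, while DESeq2 called S100A4 and TGFB2 (5.0% of 40, against 1.28% of all genes). TGFB2 lay below KO C22 by 2.67 on the log2 scale in KO C28 (SE 0.72, adjusted p = 0.515), or 1.73 below without Bru-seq KO C22 replicate 2. S100A4 lay above by 2.69 (SE 0.79, adjusted p = 0.565), or by 1.20 (SE 0.40, adjusted p = 0.692) without Bru-seq KO C28 replicate 2. PMEPA1 stood at -1.26 (SE 0.59, adjusted p = 0.837), and at -0.81 without Bru-seq KO C22 replicate 2 or, in another fit, without Bru-seq KO C28 replicate 2. ZEB1 at -0.92 (SE 0.46) and ACVR1 at -0.92 (SE 0.48) moved to -0.57 and -0.52 without Bru-seq KO C28 replicate 2, and ACVR1 to -0.59 without Bru-seq KO C22 replicate 2. TWIST2, at 4.27 (SE 2.13), stood at -5.13 without Bru-seq KO C28 replicate 2 and at 6.004 without Bru-seq KO C22 replicate 1. Libraries of KO C28 lay all below KO C22 for BMPR2, FST, PMEPA1, TGFB2 and TGFBI, 11.6% against 4.25% of all genes, and all above for INHBA and S100A4, 4.65% against 2.8%. Without Bru-seq KO C28 replicate 2 none of the 43 passed (0.0819% of all genes), 15 lay above 0 (34.9%, against 48.0%), 4 had an unadjusted p under 0.05 (9.3%, against 5.27%), 7 lay wholly below KO C22 (16.3%, against 6.79%) and 2 wholly above (4.65%, against 6.62%).

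Genes next to the most displaced members were compared to see whether whole regions differed. For each of TCF4, INHBA, FSTL1, PMEPA1, TGFB2 and S100A4, the 4 nearest genes on each side with a mean of at least 100 counts were taken, and none of the 8 passed in either clone, with or without Bru-seq KO C28 replicate 2. The farthest lay 1965 kb away. With all libraries these members did not pass with edgeR either, so passing cannot tell a member from its region, and the fold changes are given. Around TCF4 they lay between -0.47 and 0.37 in KO C22 and between -1.64 and 0.00 in KO C28, far from its own 3.31 and 3.16, although the nearest is 327 kb away. RRP15, 8.25 kb before TGFB2, stood at 0.05 and -0.63. Around INHBA the range was -0.75 to 0.52 in KO C22 and -0.94 to 1.39 in KO C28, or -0.51 to 0.27 without that replicate. Next to FSTL1, LRRC58 stood at -0.53 and -0.67 and NDUFB4 at -0.90 and -0.53, opposite in sign to FSTL1. BMP7, a BMP ligand gene 382 kb from PMEPA1, stood at -1.72 (SE 0.49, adjusted p = 0.368) in KO C22. Some neighbours lay as high in KO C28 as the S100 genes given above, among them STXBP5L, 457 kb from FSTL1 (2.58, SE 1.14), ESRRG, 1209 kb from TGFB2 (2.67, SE 1.15), and APCDD1L-AS1, 804 kb from PMEPA1 (2.07, SE 0.73). Without KO C28 replicate 2 these were 0.21, 1.23 and 0.82.

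**Figure D4:**
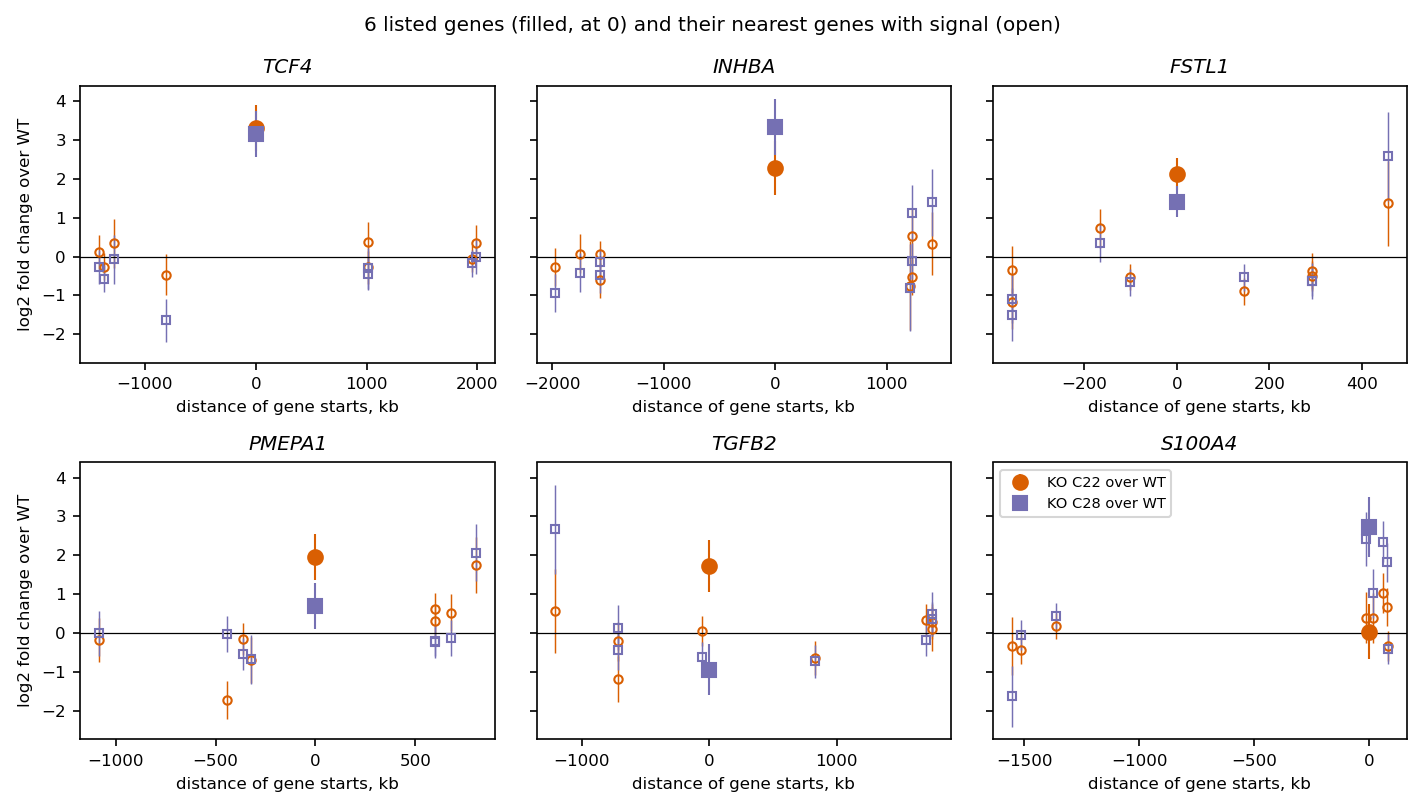
Log2 fold change over WT (both assays, bars of 1 SE) of 6 listed genes (filled, at distance 0) and their nearest genes with signal (open), against the distance between gene starts in kb, with KO C22 as circles and KO C28 as squares. The neighbours of TCF4 stayed between -1.64 and 0.37, and the S100 genes close to S100A4 lay between 1.02 and 2.42 in KO C28 with all libraries.

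BruUV-seq against Bru-seq (3 against 6 libraries, line as a term) followed gene length in the listed genes as in all genes. UV damage stops polymerases, so that reads gather near gene starts and long genes lose reads relative to short ones. Across the 43 genes the Spearman correlation of the log2 ratio with gene length was -0.411, and across all 20819 it was -0.472, both being across genes of the same libraries and given as a description. The 8 listed genes under 10 kb had a median of 0.49, against 0.63 for all genes of that length, and the 4 of 200 kb or more had -0.72, against -1.26. Over all genes 0.447% passed and none of the 43 did in edgeR, 10 of them (23.3%) having an unadjusted p under 0.05, against 25% of all genes, while DESeq2 called 6 of the 42 that it gave an adjusted p (14.3%, against 18.9%). ID3, a short BMP target of 1.88 kb, had 22.7, 27.4 and 28.7 CPM in BruUV-seq of KO C22, KO C28 and WT, against 2.65 to 14.7 in Bru-seq (2.20, SE 0.51, adjusted p = 0.0629). TGFB1 had 32.9, 32.5 and 21.7 CPM in BruUV-seq, against 7.90 to 12.6 in Bru-seq (1.48, SE 0.34, adjusted p = 0.0629), well above genes of its length, which had a median of 0.33. The assays did not overlap for ID3, LTBP3, TGFB1, SNAI1 and ENG, all higher in BruUV-seq (11.6%, against 10.1% of all genes), or for ZEB2, lower (2.33%, against 2.92%). In all 20 of 43 lay above 0 (46.5%, against 49.1%). ZEB2, with 0.798 to 1.06 CPM in BruUV-seq, stood at -2.33 (SE 0.69, adjusted p = 0.105), and TCF4, of 414 kb, at -1.40 (SE 0.50, adjusted p = 0.139). Without Bru-seq KO C28 replicate 2, 15.0% of all genes passed and 8 of the 43 did (18.6%): ID3, TGFB1 and SNAI1 higher in BruUV-seq, and ACVR1, SMAD5, TCF4, ZEB1 and ZEB2 lower. In that fit 20 lay above 0 (46.5%, against 47.1%), 16 had an unadjusted p under 0.05 (37.2%, against 34.4%), 5 lay wholly above Bru-seq (11.6%, against 15.2%) and 8 wholly below (18.6%, against 11.9%).

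**Figure D5:**
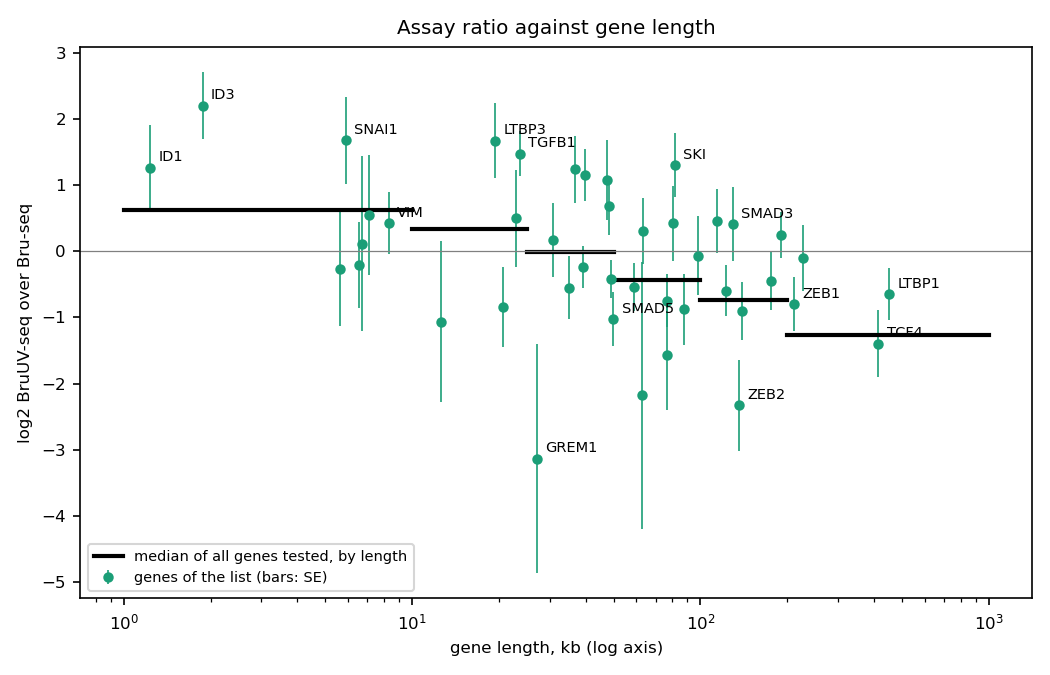
Log2 ratio of BruUV-seq over Bru-seq (bars of 1 SE) of the 43 genes tested against gene length in kb on a log axis, with black lines for the median of all genes tested in each length class. Listed genes followed the medians downward with length, with genes to both sides. ID3, TGFB1, LTBP3 and SKI were among those above their class median, and SMAD5 and ZEB2 among those below.

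With BruUV-seq alone, where each line has 1 library and no replicate check, 34 listed genes had a mean of at least 100 counts. Log2 ratios over WT of 1 or more were found for 9 in KO C22 (26.5%, against 11.2% of 11833 genes) and 11 in KO C28 (32.4%, against 7.23%). Ratios of -1 or less were found for TGIF1 in KO C22 (8.04% of all genes) and for none in KO C28 (3.8% of all). INHBA had the largest ratios of the 34 genes, 3.30 in KO C22 and 4.65 in KO C28. TCF4 stood at 2.91 and 3.31, FSTL1 at 1.64 and 1.85, PMEPA1 at 1.68 and 1.47, and LTBP2 at 1.74 and 1.75 in KO C22 and KO C28. TGFB2, at 0.22 and -0.33, was near WT in both. The sign was that of the Bru-seq fit for 22 of the 34 genes in KO C22 and 17 of 34 in KO C28. This count was not made over all genes, so there is no share to set beside it.

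Other genes of the pathways were taken from lists of 61 pathway genes and 50 response and EMT genes. Of the 47 pathway genes tested with both assays 1 rose in KO C22 and 0 fell, where 0.178% of all genes passed. Log2 fold changes above 0 were found for 30 of 47, against 51.5% of all genes. In KO C28 none passed (0.125% of all genes did), and 20 of 47 lay above 0, against 47.1% of all genes. The gene was BMPR1B, a type I BMP receptor, with 115 and 210 CPM in Bru-seq and 53.9 CPM in BruUV-seq of KO C22, and 62.3, 40.1 and 21.0 CPM in KO C28, against 18.2, 7.27 and 5.04 CPM in WT. All clone libraries lay above WT, with 3.59 (SE 0.47, adjusted p = 0.0152) for KO C22 and 2.02 (SE 0.44, adjusted p = 0.148) in KO C28. The KO C22 call was lost in 4 of 9 omissions, with adjusted p of 0.0838 and 0.0989 without Bru-seq WT replicates 1 and 2, 0.166 without BruUV-seq WT and 0.0720 without BruUV-seq KO C22. THBS1, an activator of latent TGF-beta, stood at 4.04 (SE 0.72, adjusted p = 0.0612) in KO C22, and NOG, a BMP antagonist, at 3.31 (SE 0.58, adjusted p = 0.0637) in KO C28. THBS1 passed in KO C22 without Bru-seq KO C28 replicate 1 or 2 (adjusted p = 0.0291 and 0.0345). NOG passed in KO C28 without Bru-seq KO C22 replicate 2 (adjusted p = 0.0181). Without Bru-seq KO C28 replicate 2, NOG also passed as higher in KO C22 (2.57, adjusted p = 0.043). In that fit the pathway gene GDF15 passed as lower in KO C22 (-3.37, adjusted p = 0.0397). Of the 44 response and EMT genes tested none passed in either clone. Above 0 lay 21 of the 44 in KO C22 (median -0.07) and 24 in KO C28 (median 0.09). The matrix gene TNC (4.60, SE 0.82, adjusted p = 0.0613) and the N-cadherin gene CDH2 (1.98, SE 0.37, adjusted p = 0.0661) came closest in KO C22, and the tight junction gene OCLN (-2.76, SE 0.51, adjusted p = 0.0834) in KO C28. Without Bru-seq KO C28 replicate 2 TNC and CDH2 passed (adjusted p = 0.0274 and 0.0211), TNC also passed without Bru-seq KO C22 replicate 1 (adjusted p = 0.0283), and OCLN passed without Bru-seq KO C22 replicate 2 (adjusted p = 0.0359). In BruUV-seq against Bru-seq, GDF15 (3.18, SE 0.57) and JUNB (2.98, SE 0.53) rose, both with adjusted p = 0.0453, where 0.447% of all genes passed. Each call was lost in 6 of 9 omissions, with adjusted p up to 0.440 without BruUV-seq KO C22.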

How the data were processed

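Gene tables for 9 libraries were used as deposited, 1 table per library. Per the submitters' processing notes, the tools were CASAVA 1.8.2, Bowtie2 2.3.3, STAR 2.5.3a and bedtools 2.16.2, and hg38 and GRCh38 are listed as builds without saying which tool used which. Each deposited table gives an expected count per gene, estimated by the authors over the gene body and partly fractional, and an RPKM by the authors. The annotation release and the strand setting of the counting were not given in the sources used here. Coordinates are those of the tables.

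Expected counts were rounded to whole numbers and tested with edgeR 4.0.16 in R 4.3.3 (filterByExpr, TMM, glmQLFit and glmQLFTest, Benjamini-Hochberg at 0.05 over all genes tested). The Bru-seq fit held 6 libraries (22827 genes, common biological coefficient of variation 79.3%) and the fit of both assays 9 (20819 genes, 63.4%). SE is the fold change over the root of F. CPM are TMM-scaled counts. BruUV-seq ratios between lines used a prior count of 2. DESeq2 1.42.0, RLE factors, no filter, a gene-length offset, a replicate block, fewer lines and omission of each library were alternatives. The tests were tried on simulated counts for KO C22 against WT, where they missed many changes. The Bru-seq fit found 0% of 2-fold, 10% of 4-fold and 40% of 8-fold changes. The fit of both assays found 4%, 60% and 92%. A gene that did not pass is thus not shown to be unchanged. Genes given in full were the 6 largest changes in each direction per clone, with at least 100 counts and Bru-seq libraries apart, the 6 smallest p-values between the clones, and core pathway genes; other members given by library were chosen after their values were seen.

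Members and lists were chosen with earlier results of these data known. Nothing in the labels states that replicates came from separate cultures, so the p-values cover the spread between these samples alone, which may be technical. No label says that a replicate number marks a shared batch, and differences of replicate 1 from 2 correlated between lines at 0.513 (KO C22 and WT), 0.116 (KO C28 and WT) and -0.263 (KO C28 and KO C22), so the number was not used to pair.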

Additional observations from a re-analysis of the deposited data

Results flagged for a closer look

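TGFB2 was singled out because its clones lay on opposite sides of WT in Bru-seq, with 226 and 691 CPM in KO C22 and 52.3 and 24.6 CPM in KO C28, against 72.3 and 134 CPM in WT. The difference between the clones was itself tested with both assays: KO C28 against KO C22 gave -2.67 on the log2 scale (SE 0.72, edgeR adjusted p = 0.515) and did not pass. In BruUV-seq the values were 122 and 83.3 CPM in KO C22 and KO C28, against 105 CPM in WT. Outliers within a group could not be sought, since no group has over 2 libraries.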

How the results depend on the processing

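The count of 0 listed genes held in most but not all alternatives. DESeq2 called 2 in each clone on Bru-seq, and with both assays 4 in KO C22, 6 in KO C28, 2 between the clones and 6 between the assays. Without a filter the counts were 4, 3, 3 and 7, where 272, 1100, 230 and 2326 of all genes passed. RLE factors gave 1 in KO C22, where 38 of all genes passed. A fit of the 2 lines alone gave 2 in KO C22, where 104 of all genes passed. Omitting a library gave 0 to 2 in KO C22, 0 to 1 in KO C28 and 0 to 8 between the assays.

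Over all genes, Bru-seq KO C22 counts were 2 (RLE), 43 (no filter), 92 (DESeq2) and 0 to 22 by omission, and KO C28 counts 190 (no filter), 199 (DESeq2) and 0 to 179, in place of 1. With both assays KO C22 gave 272 (no filter), 348 (DESeq2), 104 (2 lines alone) and 3 to 142 by omission in place of 37, and KO C28 gave 1100 (no filter), 711 (DESeq2), 6 (2 lines alone) and 1 to 67 in place of 26. Between the clones the 0 became 230 (no filter), 2 (length offset), 226 (DESeq2) and 0 to 18. Between assays the 93 became 1 (RLE), 2326 (no filter), 0 (length offset), 3866 (DESeq2) and 0 to 3305. With the length offset the calls split 19 higher and 22 lower in KO C22 (26 and 11 without) and 14 and 14 in KO C28 (17 and 9 without).

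With the replicate number as a block the calls were 0 in each clone on Bru-seq, 46 in KO C22 and 49 in KO C28 with both assays, and 914 between assays, 3 of them listed genes. With the numbers of KO C28 crossed, a block chosen after seeing the data, the clones differed in 2 genes. The difference of TWIST2 between clones ran from -5.13 without Bru-seq KO C28 replicate 2, where it reversed, to 6.004 without Bru-seq KO C22 replicate 1. BruUV-seq ratios of INHBA became 3.04 and 4.37 with a prior count of 10, in place of 3.30 and 4.65. The cause of these shifts was not tested. Depth limits genes such as TWIST2, SNAI2, GREM1, FST and BMP2, with 0 to 3 reads in some libraries.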
